A study of Danio rerio with 6 samples.

Results

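The genes of cortisol synthesis in the fish head kidney were examined in RNA of whole kidney marrow (WKM) blood cells. The fish were wild-type (WT) or double transgenic Tg(drl:hoxa9;hsp70:meis1) adults, called Tg here. The list holds 10 genes, taken by name: star, cyp11a2, hsd3b1, cyp17a1, cyp17a2, cyp21a2, cyp11c1, nr5a1a, mc2r and fdx1b. For 8 of them the name led to 1 row of the 32057 in the count table, and for cyp11a2 and nr5a1a to a pair of rows each. The name table gives the human symbol to many zebrafish genes, so cyp11a2 and its relative cyp11a1 both stand there as CYP11A1, and nr5a1a and nr5a1b both as NR5A1. Both rows of each pair are given, which makes 12 rows in all. WT fish were of the AB strain, and Tg fish carried hoxa9 under the draculin (drl) element and meis1 under the hsp70 heat shock promoter. Per the study, drl elements act in every lineage of the lateral plate mesoderm, which takes in all blood-forming cells. Each sample was a pool of 3 kidneys, there were 3 pools per genotype, and the age was 5 months by the labels and methods and 3 months by the text of the study's results. The sex of the fish is not given in the labels, and no source used here states the heat shock schedule of the sequenced fish.

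In teleosts the interrenal gland has no capsule. Its steroid cells lie in the head kidney among the blood-forming marrow and next to chromaffin cells, which make catecholamines. Pituitary ACTH binds Mc2r on these cells, StAR brings cholesterol into the mitochondrion, Cyp11a enzymes cleave the side chain, and Hsd3b, Cyp17a, Cyp21a2 and Cyp11c1 carry the product on to cortisol. The gonads use the first of these enzymes to make sex steroids.

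The count table held little RNA of these genes. Summed over the 12 rows, WT replicates 1, 2 and 3 had 116, 578 and 243 counts, and Tg replicates 1, 2 and 3 had 1144, 71 and 80. The total counts per library ran from 50767535 to 64888212. After scaling to library size with TMM factors (CPM) the sums were 2.11, 10.4 and 3.70 CPM over the WT pools and 21.4, 1.44 and 1.34 over the Tg pools. WT replicate 2 and Tg replicate 1 stood above the other 4 libraries, and the genotypes overlapped. The ratio of the mean sums, Tg to WT, was 1.497, and it was 0.257 without Tg replicate 1 and 2.78 without WT replicate 2. These high sums came from 2 rows, CYP11A1 (ENSDARG00000002347) and CYP17A1. This CYP11A1 row may be that of cyp11a1, which is not on the list, so the sums and their ratio may rest in part on a gene outside it. Without the CYP11A1 and CYP17A1 rows the remaining 9 rows held 74, 67 and 59 counts in WT and 69, 71 and 65 in Tg. The blood cell markers, 12 of 14 names matched, summed to between 21090 and 40400 CPM over the same 6 libraries.

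**Figure D1:**
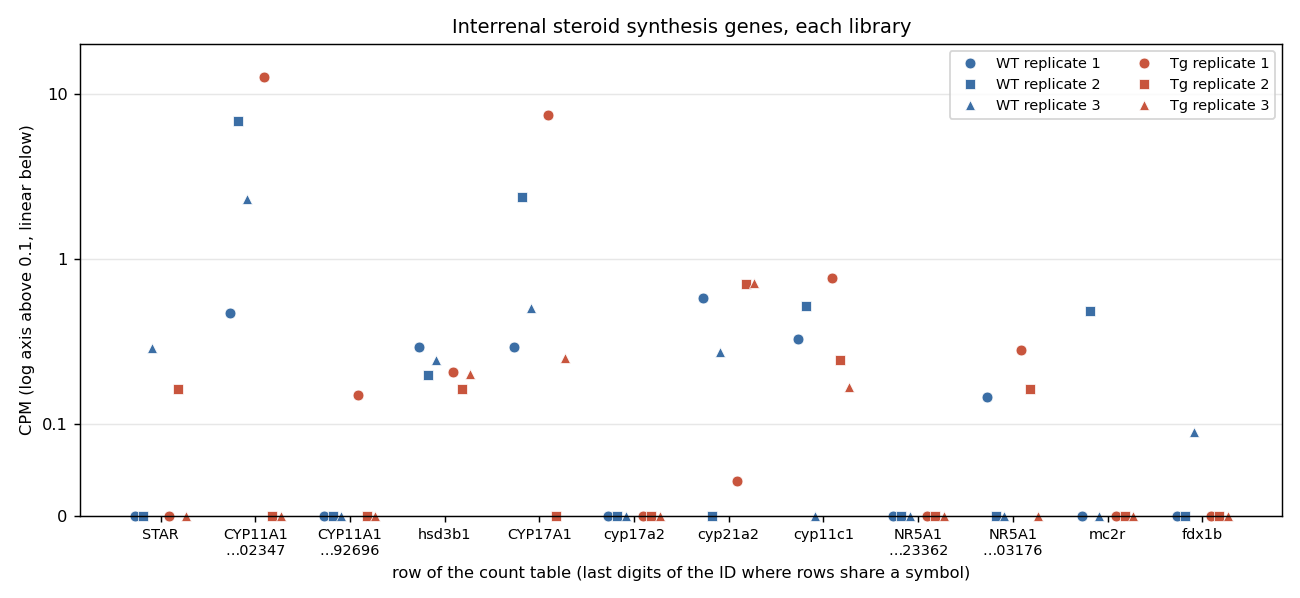
Level of each of the 12 rows in each library, in CPM, on an axis that is logarithmic above 0.1 and linear below, with WT in blue, Tg in red and 1 symbol per replicate. Most points lie below 1 CPM or at 0, and the CYP11A1 row and CYP17A1 reach 12.6 and 7.42 CPM in Tg replicate 1.

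Of the 12 rows, 2 had no count in any library, 3 had counts in 1 library only and 1, hsd3b1, had counts in all 6. If 1 count stands for 1 read, a library with no count could still have a level of up to 3 counts. That is 0.0457 to 0.0606 CPM by library and covers counting error only. Low counts in this table were not evenly spread. Over all genes and libraries a count of 4 occurred 2976 times, against 742 for a count of 3 and 543 for a count of 5, and a count of 8 occurred 2157 times, against 550 for 7 and 464 for 9. Counts of 12, 16, 19, 23 and 27 also stood above their neighbours. A count of 8 therefore need not stand for 8 separate reads, and what 1 read pair is worth in this table was not tested. The limit of 3 counts may for this reason be too low.

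**Figure D2:**
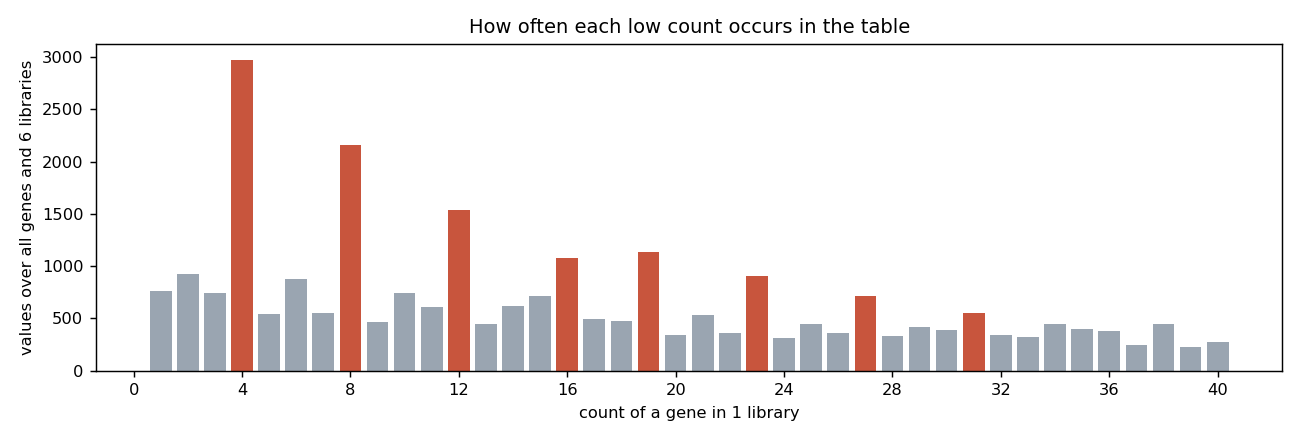
Number of gene and library values (vertical axis) at each count from 1 to 40 (horizontal axis), over all genes and 6 libraries. Red bars mark counts of 4, 8, 12, 16, 19, 23, 27 and 31, each of which occurred more often than the counts on either side.

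The filter on low counts (edgeR's filterByExpr) left 5 of the 12 rows, CYP11A1 (ENSDARG00000002347), hsd3b1, CYP17A1, cyp21a2 and cyp11c1, and 20123 genes in the whole table. None of the 5 rows differed between Tg and WT in edgeR's quasi-likelihood test at an FDR under 0.05, where 0.596% of all genes tested did (120 genes, 0.224% higher and 0.373% lower). None had an unadjusted p under 0.05, against 19.8% of all genes tested. DESeq2 called none, against 2.95% higher and 6.52% lower of its own genes tested, and limma-voom called none. DESeq2 gave no p for CYP17A1. The median log2 fold change of the 5 rows was 0.48, against 0.012 over all genes tested. This median is the value of cyp11c1, which turned to -0.46 without Tg replicate 1 and to -0.13 without WT replicate 3. In none of the 5 rows did the 3 values of one genotype lie clear of the 3 of the other. Among all genes tested, values lay clear in 14.0% with Tg above and in 14.1% with Tg below. The 7 rows not tested had a library at 0 in both genotypes, so their values could not lie clear. Standard errors of the 5 log2 fold changes were 0.93 to 2.10, so differences of several fold were not detectable in these 6 libraries. The largest was that of CYP11A1, with libraries at 0 in Tg, and the smallest that of hsd3b1, whose low counts were even. In bulk RNA, fewer cells of a type and less RNA per cell cannot be told apart.

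The genes that sense ACTH and set up the interrenal cell were at or near 0. The row of mc2r (ENSDARG00000054949), the ACTH receptor, had 27 counts in WT replicate 2 (0.484 CPM) and none in the other 5 libraries. Its accessory protein gene mrap, without which the receptor does not reach the cell surface, had 16 counts in Tg replicate 3 alone. Nr5a1a, also known as Ff1b, is the nuclear receptor that zebrafish need to form the interrenal gland. Of the NR5A1 rows, ENSDARG00000023362 had no count in any library. The other, ENSDARG00000103176, had 8, 0 and 0 counts in WT and 15, 8 and 0 in Tg, at most 0.281 CPM. These values do not separate the genotypes, and none of the 4 rows passed the filter. NR0B1 (Dax1), a nuclear receptor that represses Nr5a1, read 0.617, 2.69 and 2.48 CPM in the WT pools against 2.27, 0 and 0 in the Tg pools (log2 fold change -1.35, standard error 1.86, adjusted p = 0.739, edgeR). All WT libraries and Tg replicate 1 had counts of NR0B1.

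Cholesterol import and side chain cleavage open the pathway. The row of star (STAR, ENSDARG00000006137) had 19 counts in WT replicate 3 and 8 in Tg replicate 2 (0.290 and 0.162 CPM), and none in the other 4 libraries. The CYP11A1 row ENSDARG00000092696 had 8 counts, all in Tg replicate 1. The CYP11A1 row ENSDARG00000002347 read 0.472, 6.79 and 2.30 CPM over the WT pools and 12.6, 0 and 0 over the Tg pools. It was thus highest in 1 Tg library and not detected in the other 2, while all WT libraries lay in between. Its log2 fold change was 0.39 (standard error 2.10, adjusted p = 0.940, edgeR), and without Tg replicate 1 it did not pass either (adjusted p = 0.0985). The Tg libraries left are then both at 0, so the fitted value of -10.51 depends on how the fit treats zeros. With 3 counts taken for each of those Tg libraries, the WT mean was 57.6-fold higher. The limit of 3 counts may be too low, and the WT pools spread from 0.472 to 6.79 CPM. This ratio is thus not a lower bound. It also leaves out the highest Tg library. The fitted value was also below 0 without WT replicate 1 (-0.12), by limma-voom (-4.33) and with a replicate block (-5.38). Which of the rows is cyp11a2, the form that zebrafish use after early development, could not be settled from the name table. The RefSeq gene table (assembly GRCz12tu) lists cyp11a1.1, with the older name cyp11a1, and cyp11a1.2 close together on 1 chromosome. No source used here says how reads of similar copies were shared out, so both rows are uncertain one by one. The row of fdx1b (ENSDARG00000038956), the ferredoxin that hands electrons to mitochondrial steroid P450 enzymes in zebrafish, had 6 counts in WT replicate 3 and none elsewhere. Its paralogue fdx1 was present in every library, at 38.2, 28.0 and 28.1 CPM in the WT pools against 22.6, 19.1 and 21.1 in the Tg pools. All Tg values of fdx1 lay below all WT values (log2 fold change -0.59, standard error 0.17), as in 14.1% of all genes tested. The gene did not pass the test (adjusted p = 0.135 by edgeR and 0.0501 by DESeq2). FDXR, the reductase that charges ferredoxins, read 7.30 ± 1.23 CPM in WT and 6.14 ± 0.215 in Tg (SD, n = 3 each, edgeR adjusted p = 0.614).

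The middle steps were low as well, apart from CYP17A1 in some pools. The row of hsd3b1 (ENSDARG00000069926), the dehydrogenase that turns pregnenolone into progesterone, had 16, 11 and 16 counts in WT and 11, 8 and 12 in Tg. In CPM that is 0.290, 0.197 and 0.244 over the WT pools and 0.206, 0.162 and 0.200 over the Tg pools, the narrowest range of the 5 rows tested (log2 fold change -0.36, standard error 0.93, edgeR adjusted p = 0.873). In RefSeq the name hsd3b1 is also an older name of hsd3b2, a separate row (ENSDARG00000019747). Counts of hsd3b2 were 8, 42 and 0 in the WT pools against 83, 0 and 4 in the Tg pools, and it did not pass the filter. It was highest in Tg replicate 1 and WT replicate 2, as the CYP11A1 row was. CYP17A1 (ENSDARG00000033566), whose product has both the hydroxylase activity for cortisol and the lyase activity for sex steroids, read 0.290, 2.37 and 0.503 CPM over the WT pools and 7.42, 0 and 0.250 over the Tg pools. The order of libraries was again led by Tg replicate 1 and WT replicate 2. Its log2 fold change was 1.28 (standard error 1.80, adjusted p = 0.747, edgeR) and turned to -3.03 without Tg replicate 1, -1.295 by limma-voom and -0.94 with a replicate block. The row of cyp17a2 (ENSDARG00000053966), the paralogue that lacks the lyase activity and serves cortisol synthesis in zebrafish, had no count in any library.

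The final steps to cortisol gave few counts, with no common order of the libraries. For cyp21a2 (ENSDARG00000037550), the hydroxylase of glucocorticoid synthesis, the counts were 32, 0 and 18 in the WT pools against 2, 35 and 43 in the Tg pools. It was low in the pair of libraries in which CYP11A1 and CYP17A1 were high. In CPM it read 0.581, 0 and 0.274 over the WT pools and 0.0375, 0.707 and 0.718 over the Tg pools (log2 fold change 0.77, standard error 1.61, edgeR adjusted p = 0.839). For cyp11c1 (ENSDARG00000042014), which makes cortisol and also the fish androgen 11-ketotestosterone, the counts were 18, 29 and 0 in the WT pools against 41, 12 and 10 in the Tg pools. In CPM that is 0.327, 0.520 and 0 over the WT pools and 0.768, 0.243 and 0.167 over the Tg pools (log2 fold change 0.48, standard error 1.51, edgeR adjusted p = 0.898). The sign of this change turned without WT replicate 3 (-0.13) or Tg replicate 1 (-0.46). Over the 6 libraries, which share depth and source with every gene, Pearson's r of log2 CPM was 0.89 between CYP11A1 and CYP17A1 (Spearman's rho 0.99). It was -0.87 between CYP11A1 and cyp21a2 (rho -0.93) and 0.22 between CYP11A1 and cyp11c1 (rho 0.64). At these counts the values are a description of 6 libraries only.

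Summed markers of the gonad were highest in the libraries with the high CYP11A1, CYP17A1 and hsd3b2 counts. All 17 names of this list matched a row. Summed, the list read 43.9, 155.5 and 48.5 CPM in the WT pools against 339.1, 2.32 and 1.99 in the Tg pools. The egg coat gene zp3b stood at 27.1, 66.7 and 3.32 CPM over the WT pools and 156, 0.364 and 0.267 over the Tg pools. The oocyte factor ZAR1 stood at 9.29, 31.4 and 2.00 CPM in the WT pools against 66.9, 0.566 and 0.317 in the Tg pools. The oocyte growth factor GDF9 stood at 0.490, 0.663 and 0.152 CPM over the WT pools and 2.06, 0 and 0.0668 over the Tg pools. These 3 genes, chosen after their values were seen, were highest in Tg replicate 1 and next in WT replicate 2. Of the 15 rows of the list with a count in any library, 10 were highest in Tg replicate 1 and 6 had this order. The germ cell gene PIWIL1 was highest in WT replicate 2, at 14.2 CPM against 7.19 in Tg replicate 1. The oocyte genes buc and bmp15 and the testis gene DMRT1 were highest in Tg replicate 1, with WT replicate 3 next (32.9, 1.42 and 1.42 CPM). Markers of the somatic cells of the gonad were sparser. The growth factor gene gsdf of the gonadal support cells had 57 counts in Tg replicate 1 and at most 7 in any other library, and amh had 0, 19 and 14 counts in WT and 10, 18 and 20 in Tg. The Leydig cell gene insl3 had 70 counts in WT replicate 2 alone. The CYP19A1 row (aromatase) had 32 counts in Tg replicate 3 alone, and hsd17b1 and 1 of the 2 FOXL2 rows had none in any library. None of the 10 gonad rows tested passed edgeR's test, against 0.596% of all genes tested. Of these rows 0 had an unadjusted p under 0.05, against 19.8% of all genes tested, and limma-voom called 0. DESeq2 called 0, against 2.95% higher and 6.52% lower of all its genes tested, but gave no p for PIWIL1 and buc. The part of gonad cells in the CYP11A1 and CYP17A1 values was not tested. Without WT replicate 2 and Tg replicate 1 together, an alternative added after seeing the data, neither row passed (edgeR adjusted p = 0.148 for CYP11A1 and 0.697 for CYP17A1). CYP11A1 was then at 0 in both Tg libraries, and the log2 fold change of CYP17A1 was -1.63. With 3 counts taken for each of these Tg libraries, the CYP11A1 mean of the WT pools left was 25.1-fold higher. This ratio is not a lower bound either, and the limit of 3 counts may be too low here as well.

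**Figure D3:**
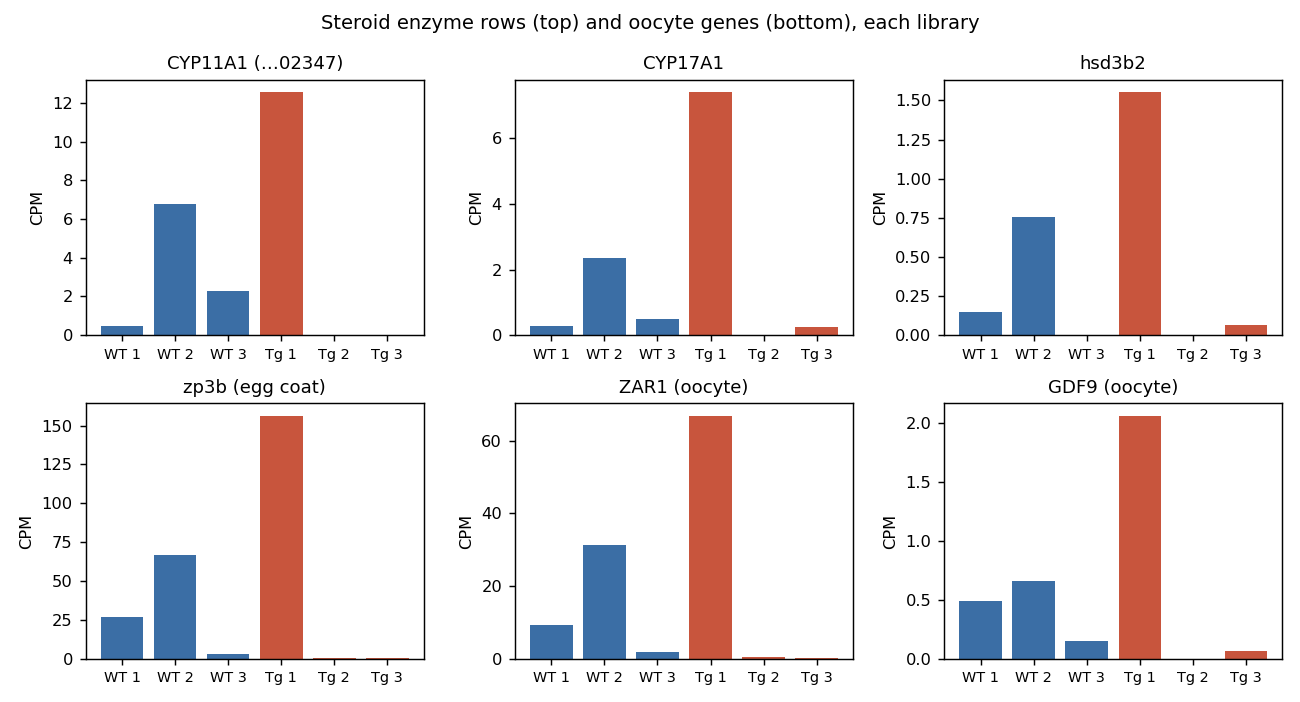
CPM (vertical axes, each from 0) of the CYP11A1 row ENSDARG00000002347, CYP17A1 and hsd3b2 in the upper row and of the oocyte genes zp3b, ZAR1 and GDF9 in the lower row, 1 bar per library, WT in blue and Tg in red. In all 6 panels Tg replicate 1 is highest and WT replicate 2 next.

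Several enzymes that act on finished steroids were counted in every WT library, and none passed edgeR's test. DESeq2, which the study's methods name, called some of them. HSD11B2, which turns cortisol into inactive cortisone, read 253, 89.1 and 139 CPM in the WT pools against 63.6, 43.6 and 55.3 in the Tg pools. Its Tg values all lay below WT, as they did in 14.1% of all genes tested. The log2 fold change was -1.57 with a standard error of 0.37, and the adjusted p was 0.101 by edgeR and 2.48e-04 by DESeq2. The reductase gene hsd20b2, which acts on cortisone in the breakdown of cortisol in zebrafish, read 22.2, 13.4 and 12.7 CPM over the WT pools and 7.79, 4.61 and 6.71 over the Tg pools. It did not overlap between genotypes either (log2 fold change -1.33, standard error 0.31, adjusted p = 0.101 by edgeR and 0.00272 by DESeq2). HSD17B3, which makes testosterone from androstenedione, read 15.6, 3.42 and 8.93 CPM in the WT pools against 0, 0 and 0.634 in the Tg pools. All its Tg values lay below WT (log2 fold change -5.42, standard error 1.58), and neither edgeR (adjusted p = 0.137) nor DESeq2 (0.118) called it. For hsd11b1la the genotypes overlapped, at 9.19 ± 5.45 CPM in WT and 4.75 ± 1.17 in Tg (SD, n = 3 each, edgeR adjusted p = 0.303).

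All 20 names on the list of other steroid enzymes and electron carriers matched, to 21 rows, of which 16 were tested. This list includes the CYP11A1 rows. None passed edgeR's test, 8 had an unadjusted p under 0.05, against 19.8% of all genes tested, and limma-voom called 0. DESeq2 called 1 higher and 3 lower, against 2.95% and 6.52% of all its genes tested. The 3 were HSD11B2, hsd20b2 and the steroid sulphotransferase gene sult2st3, and the 1 was its relative sult2st2. The signs were even, 8 positive and 8 negative, with a median log2 fold change of 0.094. Of the 16 rows, 5 lay wholly below WT and 3 wholly above, against 14.1% and 14.0% of all genes tested.

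Genes of the kidney tubule and glomerulus had negative fold changes in 21 of 24 rows tested, the sign of HSD11B2 and hsd20b2. All 20 names matched, to 30 rows, and the sum of the list was 6281, 2546 and 2910 CPM over the WT pools and 1886, 2199 and 1869 over the Tg pools. Of 24 rows tested, 1 fell, SLC12A3, the salt transporter of the distal tubule, from 212.7 ± 50.8 to 76.3 ± 12.9 CPM (SD, n = 3 each, log2 fold change -1.48, standard error 0.20, edgeR adjusted p = 0.0418). Over all genes tested edgeR called 0.373% lower. DESeq2 called 12 rows lower, against 6.52% of all its genes tested. The median of the 24 was -1.12, and 13 lay wholly below WT, against 14.1% of all genes tested. WT replicate 1 had the highest sum of this list and also the highest HSD11B2, hsd20b2, hsd11b1la, HSD17B3 and fdx1. The part of kidney tubule cells in these values was not tested. Without WT replicate 1 the log2 fold change of HSD11B2 was -1.08 and that of hsd20b2 -1.03, and SLC12A3 did not pass (adjusted p = 0.0504). SLC12A3 also missed the threshold without WT replicate 2 (0.0834), WT replicate 3 (0.105), Tg replicate 2 (0.142) or Tg replicate 3 (0.185).

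**Figure D4:**
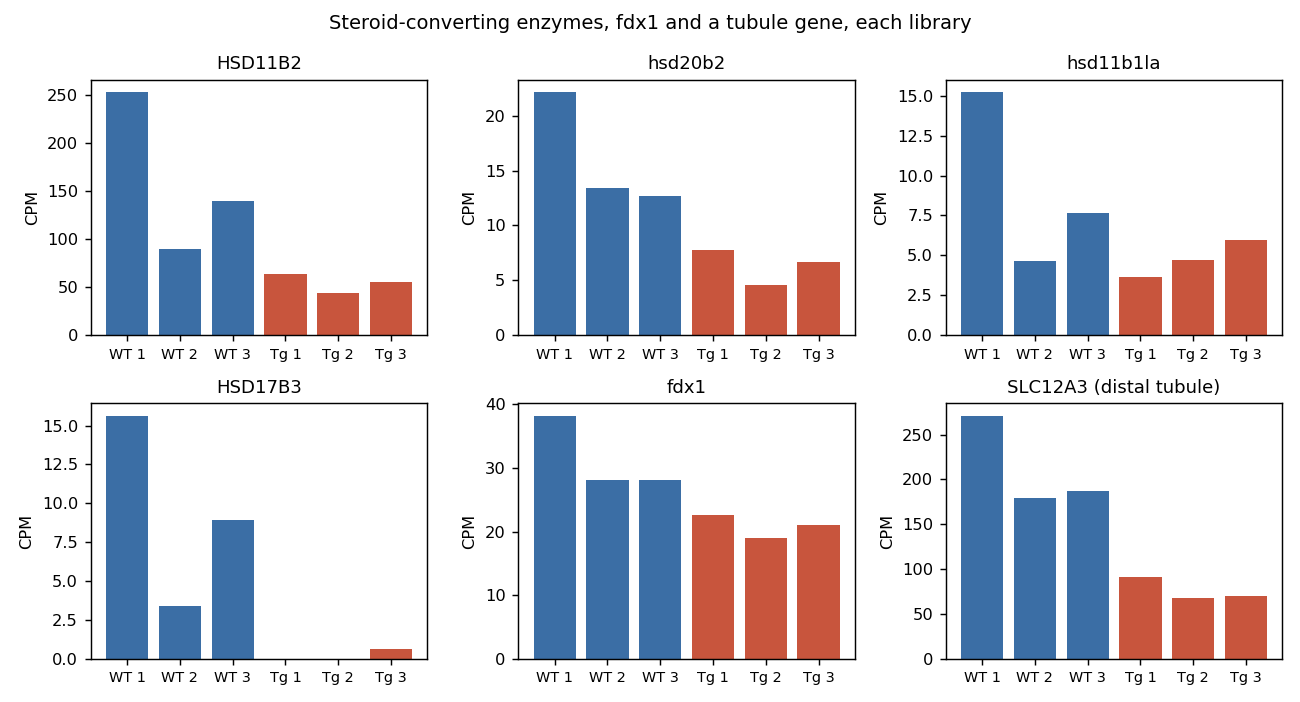
CPM (vertical axes, each from 0) of HSD11B2, hsd20b2, hsd11b1la, HSD17B3, fdx1 and the tubule gene SLC12A3, 1 bar per library, WT in blue and Tg in red. WT replicate 1 is highest in every panel, and all Tg bars lie below all WT bars except for hsd11b1la.

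Chromaffin cells share the interrenal tissue with the steroid cells. Of their enzymes of catecholamine synthesis, TH, DBH and pnmt were near 0. DDC read at least 187 CPM in the WT pools and at most 2.97 CPM in the Tg pools. TH, the first enzyme, had 0, 19 and 35 counts in WT and 12, 39 and 24 in Tg. DBH, which makes noradrenaline, had 0, 17 and 68 counts in WT and 4, 14 and 0 in Tg, and pnmt, which makes adrenaline, had 8 counts in WT replicate 3 alone. TH and DBH did not differ between genotypes by edgeR's test (adjusted p = 0.839 and 0.639). Of 18 rows matched and 9 tested, 2 fell, DDC and SLC6A2, against 0.373% of all genes tested. DDC, a decarboxylase that serves both dopamine and serotonin synthesis and is also a gene of kidney tubule, read 815, 287 and 187 CPM in the WT pools against 1.199, 0.303 and 2.97 in the Tg pools (log2 fold change -8.16, standard error 1.04, adjusted p = 0.0364). The noradrenaline transporter gene SLC6A2 read 67.3, 40.3 and 38.0 CPM over the WT pools and 4.74, 3.72 and 6.13 over the Tg pools (log2 fold change -3.32, standard error 0.30, adjusted p = 0.0198). Both were highest in WT replicate 1, the library in which TH and DBH had no count. Without WT replicate 2, WT replicate 3, Tg replicate 2 or Tg replicate 3 neither passed (adjusted p = 0.0829 to 0.123 for DDC and 0.0560 to 0.104 for SLC6A2), and DDC did not pass without Tg replicate 1 (0.0630). Of the 9 rows tested, 4 had positive and 5 negative log2 fold changes, with a median of -0.32 against 0.012 over all genes tested. Positive were TH, chgb (0.42), GATA3 (0.18) and the INSM1 row ENSDARG00000091756 (1.32). Negative were DDC, SLC6A2, DBH, SLC18A2 (-1.30) and scg2b (-0.32). The markers NPY and 1 of the 2 INSM1 rows had no count in any library.

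The remaining genes of steroid cells are shared with many cell types. Of 21 rows of interrenal regulators and ACTH signalling, 14 were tested and none passed edgeR's test, with a median log2 fold change of -0.02. By edgeR 2 had an unadjusted p under 0.05. DESeq2 and limma-voom called 0, and DESeq2 gave no p for NR0B1. Of 22 rows of cholesterol supply, 21 were tested and none passed (edgeR, 3 at an unadjusted p under 0.05, and 0 by limma-voom). DESeq2 called 1 of them lower, the lipoprotein receptor gene ldlra, and the median was -0.009. Over all genes tested 19.8% had an unadjusted p under 0.05, and DESeq2 called 2.95% of its genes higher and 6.52% lower. SCARB1, the receptor through which steroid cells take up HDL cholesterol, read 8.11, 29.0 and 15.5 CPM in the WT pools against 39.6, 9.01 and 10.1 in the Tg pools. It was highest in Tg replicate 1 and WT replicate 2 and did not pass (log2 fold change 0.16, standard error 0.67, edgeR adjusted p = 0.924), and the sign turned without WT replicate 1 (-0.18) or Tg replicate 1 (-0.87).

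Receptors of cortisol were present in every library. NR3C1, the glucocorticoid receptor, read 103.5 ± 6.47 CPM in WT and 97.1 ± 8.74 in Tg (SD, n = 3 each, log2 fold change -0.092, standard error 0.12, edgeR adjusted p = 0.713). NR3C2, the mineralocorticoid receptor, read 4.801 ± 0.415 and 4.15 ± 1.57 CPM (adjusted p = 0.792). FKBP5, a chaperone partner of the receptor that glucocorticoids induce, read 1111, 488 and 1266 CPM over the WT pools and 433, 375 and 395 over the Tg pools. All Tg values lay below WT, as in 14.1% of all genes tested. The log2 fold change was -1.25 with a standard error of 0.33, and the adjusted p was 0.116 by edgeR and 0.00116 by DESeq2. Another glucocorticoid-induced gene, tsc22d3 (Gilz), overlapped between genotypes, at 570, 350 and 462 CPM in the WT pools against 287, 782 and 575 in the Tg pools (edgeR adjusted p = 0.750). Of 20 rows of corticosteroid receptors and response, all were tested and none passed (edgeR, 6 at an unadjusted p under 0.05, and 0 by limma-voom). Over all genes tested 19.8% had an unadjusted p under 0.05, and DESeq2 called 6.52% of its genes lower. Of the list DESeq2 called 4 lower and none higher, FKBP5, CEBPD, LPIN1 and 1 PDK2 row (ENSDARG00000020876). The median log2 fold change was -0.11, and 12 of 20 were negative.

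**Figure D5:**
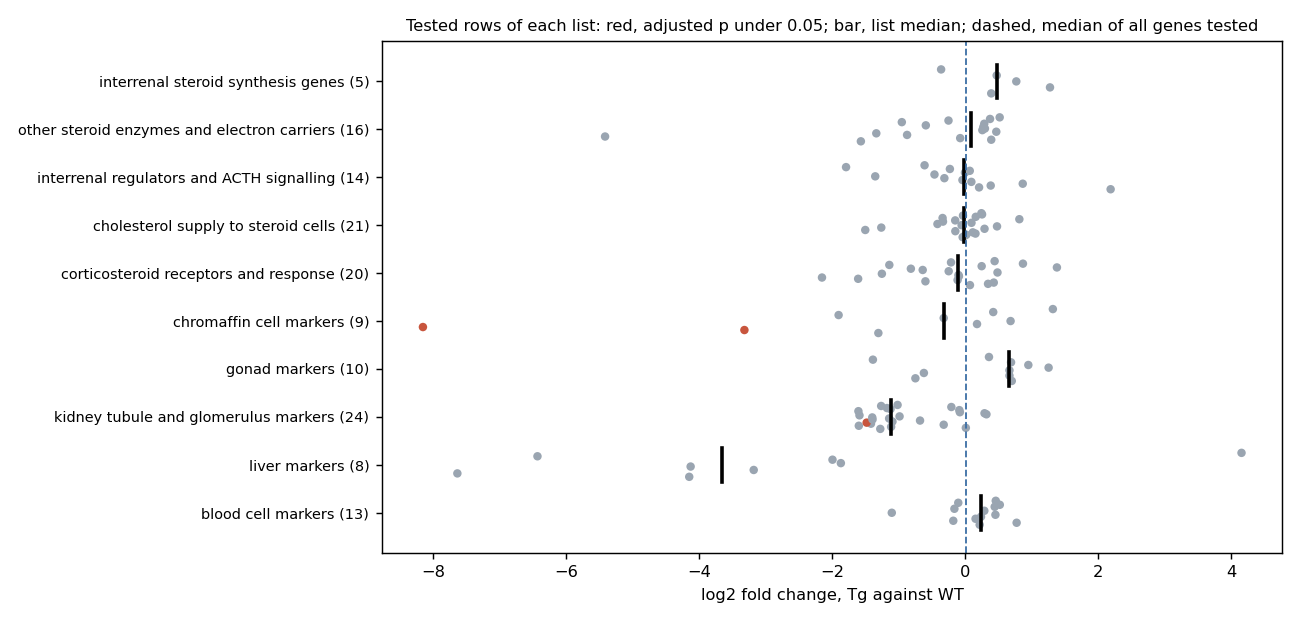
Log2 fold change of Tg against WT (horizontal axis) for each tested row of each list, with the number tested in brackets. Red points have an adjusted p under 0.05 in edgeR's quasi-likelihood test, black bars are list medians and the dashed line is the median of all genes tested, 0.012. The 5 tested interrenal rows lie between -0.36 and 1.28 and none is red.

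As a description of likeness, the mean of the 5 tested rows, each standardised over the 6 libraries, was compared with 16808 genes of at least 1 CPM. The 10 genes nearest to it were SH3D19, BAIAP2, CLUAP1, trim16, zgc:158659, PTPRU, SCAPER, si:zfos-1505d6.3, ptgfrna and si:ch211-167b20.8, with Pearson's r of 0.971 to 0.993 over 6 libraries. The 5 rows did not share a pattern, with r between -0.87 and 0.89 among them, so their mean stands for no single row.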

How the data were processed

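Total RNA of WKM cells was sequenced from 3 WT and 3 Tg pools, each of 3 kidneys. Per the submitters' processing notes and the study's methods, reads were trimmed with cutadapt 1.9, aligned to GRCz11 with HISAT2 2.0.4 and assembled with StringTie 1.3.4d. The authors' deposited table holds counts per gene and library, not normalized. Low counts in it were uneven, as described above, so 1 count need not be 1 read. The study's methods name StringTie and ballgown for expression levels, given as FPKM. No source used here names the step that made the count table or says whether it used strand.

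Rows were filtered by filterByExpr and scaled by TMM, and Tg was tested against WT with the quasi-likelihood method of edgeR 4.0.16 (R 4.3.3), Benjamini-Hochberg adjusted over 20123 genes. A gene passed at an FDR under 0.05 in this edgeR test. The study's methods instead name DESeq2 for comparing groups, and also ask for a fold change of at least 2. Log2 CPM used a prior count of 2. Standard errors given for edgeR were derived as the absolute log2 fold change over the square root of the F statistic, so they are approximate. Alternatives were DESeq2 1.42.0, limma-voom (limma 3.58.1), other scaling, no filter, a replicate block and leaving out libraries.

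Symbols came from a name table, and list names were matched by own symbol, then human symbol. The rule for naming genes was: all members, a fixed set by role, up to 4 genes per list past the test, and the 10 genes of most similar pattern. The members and lists were chosen with earlier results of these data known. The genes zp3b, ZAR1, GDF9, buc, bmp15, DMRT1, PIWIL1, insl3, apoa2, tfa, serpina1, fga, sult2st2, sult2st3, ldlra, CEBPD, LPIN1, PDK2, NR4A1, vtg1, hsd11b1la, the 10 genes nearest to CYP11A1, NPY, INSM1, chgb, GATA3, SLC18A2, scg2b, FOXL2 and hsd17b1 were named after their values were seen. The lists were: other steroid enzymes and electron carriers, interrenal regulators and ACTH signalling, cholesterol supply, corticosteroid receptors and response, and markers of chromaffin cells, gonad, kidney tubule and glomerulus, liver and blood cells. No coordinates are given, since the RefSeq table is of another assembly. P-values weigh the difference between genotypes against the spread between pools of the same genotype.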

Additional observations from a re-analysis of the deposited data

How the results depend on the processing

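No member of the interrenal list passed under any alternative run: DESeq2 (no p for CYP17A1), limma-voom, RLE factors, library size only, no filter, the replicate block, each library left out, or WT replicate 2 and Tg replicate 1 left out together (added after seeing the data). The ratio of the sums over all 12 rows, which include both CYP11A1 rows, was 1.497 and ranged from 0.257 to 2.78 with 1 library left out. Over all genes, 113 were called with the fold threshold, 1412 by DESeq2, 48 by limma-voom, 1 with the replicate block, 0 to 87 with 1 library left out (0 without Tg replicate 2 or 3, 1 without WT replicate 3, 4 without WT replicate 2), and 4 without the pair. The cause was not tested.

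Past the test by DESeq2 were 4 other steroid enzymes, 1 cholesterol gene, 4 corticosteroid response genes, 12 tubule markers, 2 liver markers and 3 blood markers, against 0, 0, 0, 1, 0 and 0 by edgeR. Over all genes DESeq2 called 2.95% higher and 6.52% lower, and edgeR 0.224% and 0.373%. Of the 2 chromaffin calls, 1 held by limma-voom, 0 with the replicate block, 0 to 2 with 1 library left out and 0 without the pair. The 1 tubule call became 0 with the replicate block, 0 to 1 with 1 library left out and 0 without the pair. Liver markers gave 2 with no filter and 0 to 1 with 1 library left out.

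Log2 fold changes that turned sign were those of CYP11A1 (limma-voom -4.33, replicate block -5.38, 1 library left out -10.51 to 1.59, pair left out -9.32), CYP17A1 (-1.295, -0.94, -3.03 to 2.68, -1.63) and SCARB1 (-0.008, -0.091, -0.87 to 0.73, -0.30), in the same order. With 1 library left out, cyp11c1 ran from -0.46 to 1.26, NR3C2 from -0.55 to 0.003 (0.021 without the pair) and tsc22d3 from -0.10 to 0.56. Without Tg replicate 1 both Tg libraries left are at 0 for CYP11A1, so -10.51 and -9.32 are set by the fit's treatment of zeros. The other causes were not tested.

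Same-numbered deviations from the group means correlated at -0.087, -0.135 and 0.129 (replicates 1, 2 and 3). The largest correlation was 0.245, between WT replicate 2 and Tg replicate 1. With 3 pools per genotype these values cannot decide whether replicate numbers pair the pools. Low counts limit what the 12 interrenal rows can show.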

Other observations

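NR4A1, an immediate-early nuclear receptor that ACTH induces in mammalian steroid cells and that many other stimuli induce in blood cells, read 32.9, 7.31 and 8.55 CPM over the WT pools and 119, 42.8 and 60.6 over the Tg pools. All Tg values lay above WT (log2 fold change 2.19, standard error 0.66), as in 14.0% of all genes tested. The gene did not pass the test (adjusted p = 0.146 by edgeR and 0.0681 by DESeq2). CEBPD, a transcription factor that glucocorticoids induce, read 49.1, 22.8 and 39.1 CPM in the WT pools against 16.6, 18.8 and 15.0 in the Tg pools (log2 fold change -1.14, standard error 0.28, adjusted p = 0.106 by edgeR and 0.00366 by DESeq2). Both genes were chosen after their values were seen.

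Markers of the liver summed to 26.6, 52.0 and 622 CPM over the WT pools and 46.1, 22.6 and 36.5 over the Tg pools. WT replicate 3 thus stood apart. This library also held 19 counts of STAR and the 6 counts of fdx1b. Tg replicate 2, lowest in the liver sum, held the other 8 counts of STAR. A link between these few counts and the liver markers was not tested. Of 8 rows tested none passed (edgeR, 3 at an unadjusted p under 0.05, and 0 by limma-voom). DESeq2 called 1 higher and 1 lower, and gave no p for tfa, serpina1 and fga. Over all genes tested 19.8% had an unadjusted p under 0.05, and DESeq2 called 2.95% of its genes higher and 6.52% lower. Of the 8 fold changes 7 were negative, with a median of -3.65 on the log2 scale, against 0.012 over all genes tested. All 7 negative rows were highest in WT replicate 3, so the median leans on that library. The sums of WT replicates 1 and 2 overlapped those of the Tg pools. The lipoprotein gene apoa2 read 16.9, 26.2 and 134.8 CPM in the WT pools against 0.281, 0 and 0.584 in the Tg pools (log2 fold change -7.64, standard error 1.32, adjusted p = 0.0663 by edgeR and 1.02e-04 by DESeq2). The 1 positive row was the yolk protein gene vtg1, which oestrogen induces in fish liver. It read 1.47, 0.538 and 0.366 CPM in the WT pools against 7.62, 12.1 and 22.6 in the Tg pools (log2 fold change 4.16, standard error 0.68, adjusted p = 0.0554 by edgeR and 9.15e-10 by DESeq2). It was higher in 3 of 3 Tg libraries, and unlike zp3b it was not highest in Tg replicate 1. Of 13 blood cell marker rows tested none passed (edgeR, 4 at an unadjusted p under 0.05, and 0 by limma-voom), and DESeq2 called 2 higher and 1 lower. The shares over all genes are those given above for the liver list.

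For the CYP11A1 row ENSDARG00000002347 alone, a comparison added after its values were seen, the 10 nearest of 16808 genes in pattern over 6 libraries had Pearson's r of 0.987 to 0.999. They were topaz1, PYGL, cax1, map1lc3c, APOD, FZD7, ccnp, si:dkey-163f14.5, zgc:195245 and si:ch73-303b9.1.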
